A study of Homo sapiens with 13 samples.

Results

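SW1353 is a human chondrosarcoma line, a cartilage tumour line that serves as a stand-in for chondrocytes and is labelled as chondrocyte. The account below covers the RNA made from every element of a lentiviral massively parallel reporter library in this line, relative to the DNA of the same element. The members were the elements with 10 or more nonzero DNA barcode positions in each of 3 replicates, which left 9681 of 9769 elements of the library. Across both lines of the series 9692 elements were measured, and 7160 of 7236 in TC28a2, an immortalized chondrocyte line.

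All cells of both lines were infected with the same kind of library, built around variants associated with adolescent idiopathic scoliosis, and were incubated for 48 hours. DNA and RNA were isolated together, so that the DNA libraries are the control of the RNA libraries, and the labels describe no uninfected or otherwise treated cells. SW1353 contributed 6 of the 12 count libraries, DNA and RNA of 3 replicates each, and the labels do not say whether the replicates were separate cultures. Each line is a single cell line and stands for no donor or tissue.

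In a lentiviral reporter assay each short sequence sits in front of a minimal promoter and a transcribed barcode, and the construct is integrated into the genome of the infected cell. A sequence that acts as an enhancer or promoter in that cell raises the RNA of its barcodes over their DNA. Chondrocytes build and maintain cartilage, and chondrosarcoma lines keep some of the chondrocyte programme while dividing in culture. Elements with the bases in random order (scrambled controls) show how much RNA a sequence without its native motifs gives.

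The SW1353 library held 1579 reference and 4468 alternative elements of scoliosis variants, 998 cartilage, 998 bone and 995 muscle elements named as peaks, and 250 elements of Crohn's disease variants. It also held 191 scrambled controls of variant sites and 98, 96 and 96 scrambled peaks of cartilage, bone and muscle. Bone, muscle, Crohn's disease and scrambled peak elements were measured in SW1353 and have no values in TC28a2. The 10-position minimum left out 88 elements, of which 24 were reference, 50 alternative, 7 cartilage, 4 bone and 2 muscle elements and 1 a scrambled cartilage peak.

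Deposited counts per SW1353 library totalled 15582658 to 15626361 for DNA and 37571404 to 37631975 for RNA, over the first 500 barcode positions of each element. The median element had 219 to 221 nonzero positions in a DNA library and 120 to 121 in an RNA library. Position 500 was filled for 26.9% of elements in DNA and 14.5% in RNA, so that the most widely represented elements had lost an unknown number of barcodes. Such elements, filled to position 500 in DNA or RNA of any SW1353 replicate, are called elements at the limit below, and they numbered 2656. Since RNA is part of this definition, leaving these elements out also selects against high RNA.

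The numbers on the replicate columns did not separate the samples. In RNA, counts of replicates 1 and 2 at the same position correlated with r = -0.12 over positions 21 to 50 of 7526 elements, and replicate 3 correlated with replicate 1 of the next position with the same r = -0.12. None of the 225780 sets of 3 neighbouring RNA values in that stretch was all zero, whether a set held the 3 values of 1 position or was shifted by 1 or 2 values. In DNA the same correlations were 0.17 within a position and 0.16 with the next. Each labelled replicate therefore held a set of barcode values that may come from several samples. Every SD, SE and p-value below measures the spread between such sets, which may be technical.

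Activity is the log2 of RNA over DNA counts summed over the positions of an element, with the median scrambled control of variant sites set to 0. Across the 9681 elements the median activity was 0.46, and the replicate medians were 0.48, 0.48 and 0.48. A total of 4726 elements (48.8%) stood above the scrambled level at an adjusted p under 0.05 in edgeR's quasi-likelihood test of RNA against DNA with Benjamini-Hochberg adjustment, and 176 (1.82%) stood below it. When the 2656 elements at the limit were left out and the fit repeated, 2456 elements stood above and 110 below. Without replicate 3 the count below fell to 89. With the mean count per nonzero position in place of the sum, 1431 elements stood above and 45 below by limma.

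Elements were also grouped by activity. Since activity is RNA over DNA, a group cut at a high activity holds a larger share of RNA than of DNA by construction. The 387 elements with an activity over 2 held 6.21% of the DNA counts and 18.4% of the RNA counts. Among these 387 were 174 cartilage, 93 bone and 82 muscle peaks, 5 reference and 16 alternative scoliosis elements, 5 Crohn's disease elements and 12 scrambled peaks, and no scrambled control of a variant site. At the limit were 309 of them. The 1541 elements with an activity under 0, 15.9% of all elements, held 10.02% of the DNA counts and 4.54% of the RNA counts. Their smaller share of RNA likewise follows from the cut.

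Cartilage peaks were the most active class. Their median activity was 1.21 (replicate medians 1.21, 1.20 and 1.18; SD 0.014), a 2.32-fold excess over the scrambled level, and 845 of 991 (85.3%) stood above it. Bone peaks, with replicate medians of 0.74, 0.75 and 0.72, had a median of 0.73, and 667 of 994 (67.1%) stood above. Muscle peaks, with replicate medians of 0.70, 0.68 and 0.69, had a median of 0.68, and 630 of 993 (63.4%) stood above. All 3 shares were over the 48.8% of all elements.

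The elements of scoliosis variants lay lower. Reference elements had a median of 0.36 (replicate medians 0.37, 0.35 and 0.36), and 576 of 1555 (37.0%) stood above the scrambled level and 30 (1.93%) below. Alternative elements had a median of 0.37 (replicate medians 0.37, 0.37 and 0.37), with 1680 of 4418 (38.0%) above and 67 (1.52%) below. The alternative and reference medians differed by 0.0099 ± 0.013 (SD, n = 3), which is within the spread between replicates. By kind of allele, the median was 0.37 ± 0.00091 (SD over replicates, n = 3) for 4287 substitutions. It was 0.27 ± 0.012 for 78 deletions and 0.32 ± 0.16 for 53 insertions. The insertion median differed from that of the substitutions by less than its SD.

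Differences between classes were compared over the 3 replicates by an exact sign-flip permutation test (two-sided), which cannot go below p = 0.25 here. The cartilage median exceeded the bone median by 0.47, 0.45 and 0.46 in the 3 replicates (mean 0.46 ± 0.0092 SD, n = 3, exact p = 0.25), far more than the spread between them. Bone exceeded muscle by 0.036, 0.074 and 0.031 (mean 0.047 ± 0.024 SD, n = 3, exact p = 0.25). Among elements under the limit the first difference was 0.26, and the second was -0.018, that is, muscle was then slightly higher. Reference elements exceeded the scrambled controls of variant sites by 0.48, 0.40 and 0.37 (mean 0.41 ± 0.058 SD, n = 3, exact p = 0.25), and by 0.36 among elements under the limit.

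Activity moved with the number of filled barcode positions, and in each of the 10 classes the elements filled to position 500 in DNA had the highest median. Over all elements the median rose from 0.13 for the 881 elements whose DNA reached no further than position 100 to 0.27, 0.33, 0.40 and 0.51 in the next 4 steps of 100 positions, and to 0.97 for the 2624 filled to 500. Scrambled controls of variant sites had medians of -0.23 over 21 elements in the lowest step, -0.023, -0.13 and -0.11 in the next 3, 0.26 over 21 in the step below 500 and 0.43 over 24 at 500. What part this has in the class levels was not tested, and the classes differed in it: 68.5% of cartilage, 47.5% of bone and 43.1% of muscle peaks were at the limit, against 13.6% of reference elements. The 1412 elements filled to position 500 in RNA had a median of 1.29, and 1409 of them stood above the scrambled level. The 1244 filled in DNA only had 0.60 with 75.7% above, and the 7025 under the limit 0.33 with 33.8% above. Values under the limit thus leave out the elements with the most RNA by construction.

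Within a step the order of the classes was in part kept. In the 2 lowest steps, with 11 and 32 cartilage peaks, the cartilage, bone and muscle medians were 0.16, 0.24 and 0.31 up to position 100 and 0.42, 0.28 and 0.25 from 101 to 200. From 201 to 300 they were 0.50, 0.33 and 0.41. Between positions 301 and 400 the medians were 0.65 for 97 cartilage peaks, 0.41 for 133 bone peaks, 0.43 for 130 muscle peaks, 0.38 for 253 reference elements and -0.11 for 28 scrambled controls of variant sites. Between 401 and 499 they were 0.82, 0.64, 0.69, 0.45 and 0.26. At position 500 they were 1.35, 1.08, 1.11, 0.67 and 0.43. Of these 5 classes cartilage peaks were highest and scrambled controls of variant sites lowest in each of the 3 steps from position 301, and bone lay slightly below muscle. Up to position 100 cartilage lay below both, and from 101 to 200 bone lay above muscle. The 6 scrambled cartilage peaks between 301 and 400 had a median of 0.72, above that of the native ones.

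The depth of an element set how small a difference could be called. With the elements divided into 4 equal sets by DNA counts, the set with the fewest had 137 to 2218 over the 3 libraries. In it the median SE of activity was 0.24 and 14.0% stood above. In the set with the most, from 7323 counts, the median SE was 0.10 and 89.6% stood above. The smallest activity called above the scrambled level was 0.49 in the set with the fewest DNA counts and 0.11 in that with the most. Median activity also rose over the 4 sets, from 0.23 to 0.34, 0.46 and 0.98. How much of the difference in shares goes with activity and how much with SE was not tested. An element not called among the thinly covered ones is therefore not shown to be inactive.

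The 3 highest elements of all were bone and muscle peaks. The files name no genes: those given here and below are the ones known to lie there on hg19. The bone peak at chr20:47895006-47895206, between the divergent genes ZNFX1 and ZFAS1 (a host of small nucleolar RNAs), gave 69593, 67641 and 65226 RNA counts over 2526, 2694 and 2831 DNA counts in replicates 1 to 3. Its activities of 4.47, 4.32 and 4.20 put it at 4.33 in the fit, 20.1-fold over the scrambled level (SE 0.074, n = 3, edgeR adjusted p = 5.91e-10), the highest of all elements measured. The muscle peak at chr17:39845664-39845864, in EIF1, which encodes a factor of translation start site choice, had activities of 3.95, 3.89 and 3.93. Its fitted activity was 3.92 (SE 0.069, n = 3, edgeR adjusted p = 5.91e-10). Both were at the limit.

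Among cartilage peaks the highest lay at chr13:45915277-45915477, by the start of TPT1, which encodes the abundant translationally controlled tumour protein. Its RNA counts were 17685, 19473 and 17135 over DNA counts of 1435, 1387 and 1418, and it was not at the limit. The activities of 3.31, 3.48 and 3.27 lay close together, and the fit gave 3.35 (SE 0.092, n = 3, edgeR adjusted p = 3.1e-09). The next cartilage peak under the limit, at chr1:173991520-173991720 by RC3H1, a gene of messenger RNA decay, had activities of 3.28, 2.76 and 3.30.

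Below the limit the highest muscle peaks were fitted at 3.46 and 3.31 and the highest bone peaks lower, at 2.78 and 2.65. The muscle peak at chr1:33283133-33283333, by YARS1, a tRNA synthetase gene, had activities of 3.40, 3.56 and 3.43. The muscle peak at chr3:170074887-170075087, upstream of SKIL, a repressor of TGF-beta signalling, had 3.34, 3.36 and 3.22. The bone peaks at chr2:242255152-242255352 and chr7:139044444-139044644 were less even. The first had 2.38, 2.52 and 3.44 and the other 1.94, 3.10 and 2.90, on totals of 1762 and 1747 DNA counts.

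A few peaks stood below the scrambled level. The cartilage peak at chr9:131644438-131644638, by LRRC8A, which encodes a subunit of volume-regulated anion channels, gave 985, 740 and 1005 RNA counts over 2161, 2099 and 2325 DNA counts. Its activities were -1.45, -1.83 and -1.54 and the fitted value -1.61 (SE 0.15, n = 3, edgeR adjusted p = 9.29e-06). All 3 replicates thus lay far under 0. In all, 6 cartilage peaks (0.61%) were called below, against 1.82% of all elements. The lowest bone peak called under the limit, at chr17:7483995-7484195 in CD68, a macrophage marker gene, had -1.54, -0.92 and -1.51. The lowest muscle peak called under the limit, at chr6:108882581-108882781 in FOXO3, a transcription factor gene, had -1.32, -0.93 and -1.36. With the mean count per nonzero position the CD68 element was no longer called (limma adjusted p = 0.053), the 1 of 12 alternatives under which this happened.

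Each variant position was represented by its reference element and up to 3 alternatives that differ at the variant, so that the elements of a position share nearly all of their sequence and are not independent. At 1422 positions with 4 measured elements, the number of elements above the scrambled level was 0 at 630, 1 at 219, 2 at 114, 3 at 105 and 4 at 354. Of all 5973 scoliosis elements 37.8% stood above. The means of the positions had an SD of 0.41, while the median SD among the alleles of a position was 0.17, so that positions differed more among themselves than did their alleles. All elements stood below the scrambled level at 1 position.

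The most active position was 17800379 on chromosome 12 (hg19). Its 4 elements were at 2.67 (reference C), 2.72 (A), 2.83 (G) and 2.65 (T), and the replicate means over them were 2.78, 2.73 and 2.64. All 4 were at the limit. The reference element gave 28463, 25478 and 25493 RNA counts over 3458, 3083 and 3420 DNA counts (SE 0.077, n = 3, edgeR adjusted p = 3.95e-09).

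Position 3125811 on chromosome 8, in CSMD1, a large gene for a complement regulator, came next with far fewer barcodes, 66.3 to 77.7 per element and DNA library. The reference element (A) had activities of 2.48, 2.05 and 2.42, and the alternatives C, G and T were fitted at 2.08, 2.35 and 2.79. The alternative with T owed its height in part to replicate 1, where it reached 3.55 against 2.37 and 2.46 in the other two. Reference elements 74 and 113 bp downstream stood at 0.88 and 0.80, both above the scrambled level with all 4 of their elements. The level thus fell by more than the replicate spread from one variant to its neighbours.

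At position 85276025 of chromosome 4 the reference element (C) had 2.46, 2.23 and 2.11, and the 3 alternatives were fitted between 2.06 and 2.16. The reference element of position 85275882, 143 bp upstream, stood at 0.43 (SE 0.14, n = 3, edgeR adjusted p = 0.024). At position 21896924 of chromosome 20, in the region of PAX1, a transcription factor gene of the developing spine, the replicate means over 4 elements were 2.02, 2.11 and 2.13. These 4 elements spanned 2.03 to 2.12, all at the limit.

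The position at which every element stood below was 60867780 of chromosome 18, in BCL2, which encodes an inhibitor of cell death. The reference element (C) had -1.40, -0.13 and -1.16 in the 3 replicates, and the alternatives were fitted at -0.72 (A), -0.62 (G) and -1.10 (T). The mean over the 4 elements was -0.84, and by replicate it was -0.69 in replicate 2, -0.82 in replicate 3 and lower still in replicate 1. The reference element came close to 0 in replicate 2 only, while the 3 alternatives stayed below -0.4 in each replicate.

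The highest scoliosis element was an alternative with a deletion at position 53822169 of chromosome 16, in FTO, an RNA demethylase gene, with activities of 3.05, 2.93 and 3.37. It was not at the limit and exceeded the highest scoliosis reference element. At the other end, the reference element of position 82883758 on chromosome 16, in the cadherin gene CDH13, had -0.63, -1.64 and -2.64 on 879 DNA and 396 RNA counts. That call was lost without replicate 3 (adjusted p = 0.064) and with the mean per position (adjusted p = 0.13), and adjusted p-values over its 11 alternatives began at 6.8e-05. The lowest alternative element, at position 3128471 of chromosome 8 in CSMD1 with A, had -3.45, -0.75 and -2.02 on 229 DNA and 93 RNA counts. Its fitted -1.96 passed with an edgeR adjusted p of 0.044 (n = 3) and did not pass under 5 alternatives, among them the fits without replicate 1 (adjusted p = 0.23), without replicate 3 (adjusted p = 0.10) and without the replicate block (adjusted p = 0.079). Over its 11 alternatives the adjusted p ranged from 0.0080 to 0.29.

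Reference elements of different positions share bases where variants lie close together. Elements are 200 bp long by the coordinates in the control names, and were taken as centred on the variant. The correlation of activity between reference elements, over pairs that share positions and are not independent, was r = 0.55 for 80 pairs 1 to 25 bp apart and 0.54 for 83 pairs 26 to 50 bp apart. It was 0.38 for 173 pairs 51 to 100 bp apart and 0.22 for 173 pairs 101 to 150 bp apart. At 151 to 200 bp (167 pairs) it was -0.037, and at 201 to 500 bp, where elements no longer overlap, 0.043 (880 pairs). Activities were thus more alike where elements shared most of their bases than where they shared few or none. Within single replicates r was lower, 0.27, 0.19 and 0.33 for the pairs 1 to 25 bp apart. Over all distance steps up to 2000 bp, 6 correlations moved by at least their SD over replicates with the mean count per nonzero position, and 2 did not. Without the highest position of each element 6 also moved and 2 did not.

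The 25 loci differed little in the median of their reference elements beside the spread within each. The lowest median was 0.24 over 32 elements in the BCL2 region of chromosome 18, followed by 0.26 over 52 at BNC2, a zinc finger gene, on chromosome 9 and 0.28 over 73 at SOX6, a transcription factor gene of chondrocyte differentiation, on chromosome 11. The lowest and the third differed by less than their SDs over replicates, 0.051 and 0.056. Among the loci between these and the highest were ADGRG6, an adhesion receptor gene (0.32, 81 elements), and LBX1 (0.32, 13 elements). The locus around COL10A1, the collagen gene of hypertrophic chondrocytes, had 0.33 over 31 elements. PAX1 (0.37, 254 elements), CDH13 (0.40, 128 elements), CSMD1 (0.40, 86 elements) and FTO (0.41, 90 elements) stood higher.

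The highest medians were those of 3 loci with 13, 8 and 45 reference elements. The WNT9A and WNT3A region of chromosome 1, named for genes of secreted Wnt ligands, had a median of 0.85 ± 0.14 (SD over replicates, n = 3) over 13 reference elements. Of these, 9 (69.2%) stood above the scrambled level, against 37.0% of all reference elements and 48.8% of all elements. TBX1, a T-box factor gene of chromosome 22, followed with 0.57 ± 0.20 over 8 elements. UNCX, a homeobox gene of the somites on chromosome 7, had 0.49 ± 0.034 over 45 elements, 28 of them (62.2%) above. Among elements under the limit the WNT9A and WNT3A median was 0.64 over 7 elements, that of UNCX 0.23 over 24, and 1 element of TBX1 remained at -0.20. The order of the loci thus moved with the elements at the limit.

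Peaks of different tissues that overlap in the genome are a further repeat of the measurement, since they are separate elements of the library. Over 286 such pairs the activities correlated with r = 0.52. By the bases shared, r was 0.26 for 73 pairs with 1 to 50 bp, 0.46 for 81 pairs with 51 to 100 bp, 0.56 for 61 pairs with 101 to 150 bp and 0.84 for 71 pairs with 151 to 199 bp. For the 30 pairs that shared 180 bp or more it was 0.94, and their median absolute difference was 0.14. In these 30 peak pairs separate elements of nearly the same sequence thus gave similar activity. The 80 pairs of scoliosis reference elements 1 to 25 bp apart had a lower r of 0.55 and a median absolute difference of 0.20.

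Peaks found in more than one tissue set were more active. The 2456 peaks that overlapped no peak of another tissue had a median of 0.78 ± 0.0019 (SD over replicates, n = 3), the 472 that overlapped 1 other tissue 1.13 ± 0.013 and the 50 that overlapped both others 1.40 ± 0.018. The shares above the scrambled level were 69.8%, 81.1% and 88.0%. The 50 were 15 bone, 17 cartilage and 18 muscle peaks. Since overlapping peaks share bases, the elements that overlap another tissue are not independent of one another. Among bone peaks the medians were 0.66, 1.08 and 1.41 and among muscle peaks 0.63, 1.02 and 1.48, while cartilage peaks spanned only 1.19, 1.27 and 1.34. At the limit were 1240 of the 2456, 301 of the 472 and 38 of the 50. Under the limit the medians over all peaks were 0.43, 0.64 and 1.33, the last over 12 elements. By tissue they were 0.37, 0.69 and 1.59 for bone and 0.64, 0.74 and 2.03 for cartilage. Muscle peaks rose less, with 0.41, 0.48 and 0.53. The last values of bone, cartilage and muscle rest on 3, 5 and 4 elements.

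Elements of Crohn's disease variants, a disease of the gut and a control for scoliosis variants here, had a median of 0.41 (replicate medians 0.44, 0.43 and 0.40). Of these, 114 of 250 (45.6%) stood above the scrambled level, near the 48.8% of all elements. Their median exceeded that of the scoliosis reference elements by 0.065 ± 0.024 (SD, n = 3) over all elements and lay 0.024 below it (difference -0.024) among elements under the limit. Of 100 positions, 34 had all elements above and 43 none.

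The highest Crohn's disease position was rs4456788 at chr21:45616224-45616424, in the region of ICOSLG, a T-cell costimulatory ligand gene. Its reference element had 2.71, 2.32 and 2.39, and its 2 alternatives were fitted at 2.26 and 2.18, all at the limit. Under the limit, rs10748781 at chr10:101283230-101283430, near NKX2-3, a homeobox gene of gut and spleen, was highest, with 1.58, 1.90 and 2.13 for the reference element and 1.73 and 1.62 for the alternatives. The lowest was rs2066845 at chr16:50756440-50756640, in the region of NOD2, a bacterial sensor gene. The alternative with C had -1.01, -0.75 and -0.82 (fitted -0.86, SE 0.13, n = 3, edgeR adjusted p = 0.00039), the alternative with T was fitted at -0.57, and the reference element at -0.26 was not called (edgeR adjusted p = 0.12). With the mean count per nonzero position the alternative with C was not called either (limma adjusted p = 0.24), the 1 of its 12 alternatives that ended the call.

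Scrambled controls of variant sites spread around 0 by design, with 24 of 191 (12.6%) above and 25 (13.1%) below, against 48.8% and 1.82% of all elements. An SD of 0.50 over these elements shows that a scrambled sequence was not a fixed floor. The control at chr9:136142900-136143100, in the ABO blood group region, had 1.01, 1.22 and 0.99 under the limit (fitted 1.07, SE 0.11, n = 3, edgeR adjusted p = 1.85e-05). The control at chr20:21861535-21861735, in the PAX1 region, was fitted higher, at 1.26, but had 2.69, 0.23 and 0.91 and was not called under 5 of 12 alternatives, among them without replicate 1 (adjusted p = 0.13) and without replicate 3 (adjusted p = 0.059), with adjusted p-values from 0.00062 to 0.16.

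Scrambled peaks were not at the scrambled level of variant sites. Scrambled cartilage peaks had a median of 0.96 (replicate medians 0.91, 0.97 and 0.95), with 80 of 97 (82.5%) above. Scrambled bone peaks had 0.63 (0.58, 0.63 and 0.65), with 59 of 96 (61.5%) above. Scrambled muscle peaks had 0.44 (0.48, 0.37 and 0.47), with 51 of 96 (53.1%) above. The share of all elements above was 48.8%. Their order was that of the native peaks. The highest of these under the limit, the scrambled peak of chr1:200638980-200639180, had 1.84, 1.05 and 1.55. At the limit were 75.3%, 59.4% and 49.0% of the 3 classes, and under the limit their medians were 0.51, 0.14 and 0.035, over 24, 39 and 49 elements.

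Native elements with a measured scrambled version were therefore also tested against it, a comparison that does not depend on the reference level. Most native elements had no such version, and no alternative or Crohn's disease element was paired. The difference was positive in 314 of 457 pairs, with a median of 0.31. The native element was higher in 139 pairs (30.4%) and lower in 42 (9.19%) at an adjusted p under 0.05 by edgeR. The median difference was 0.35 ± 0.063 (SD over replicates, n = 3) for 171 variant sites, 0.19 ± 0.053 for 96 cartilage, 0.39 ± 0.097 for 95 bone and 0.29 ± 0.10 for 95 muscle pairs. Native elements were called higher in 37, 32, 38 and 32 pairs of these classes and lower in 8, 14, 13 and 7.

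Cartilage peaks, the most active class, had the smallest median excess over their own scrambled versions, but by no more than the SD over replicates when set against muscle. Activity of native and scrambled versions correlated with r = 0.53 over all pairs, 0.41 over cartilage, 0.41 over bone, 0.52 over muscle and 0.18 over variant-site pairs. In the 232 pairs with both versions under the limit, 53 were called higher and 8 lower, and the median difference was 0.38. When these pairs were fitted on their own, 31 were called higher and 5 lower, and with the mean count per nonzero position over all pairs 44 and 11 by limma.

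The largest native excess under the limit was at the muscle peak chr12:109914985-109915185, near KCTD10 and UBE3B, genes of the ubiquitin system. The native element had 2.78, 2.65 and 2.34 and the scrambled one 0.53, 0.19 and 0.31, a difference of 2.25 (SE 0.16, n = 3, edgeR adjusted p = 6.5e-08). No scrambled value reached the native range. The muscle peak chr1:17231295-17231495 had 2.42, 2.37 and 2.31 against -0.22, 0.60 and 0.24. The variant site at 222715518 of chromosome 2, between EPHA4 and PAX3, had -0.11, 2.32 and 0.76 against -0.66, -1.47 and -1.31, and this call was lost under 2 of 9 alternatives, without replicate 2 (adjusted p = 0.095) and with the mean count per nonzero position (limma adjusted p = 0.13). Over the 9 alternatives the adjusted p began at 0.0012.

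In the other direction, the cartilage peak chr9:110045872-110046072, in the DNA repair gene RAD23B, had -0.54, -0.65 and -1.11, and its scrambled version 0.51, 0.80 and 0.77. The difference was -1.45 (SE 0.23, n = 3, edgeR adjusted p = 0.00020). The muscle peak chr11:1994030-1994230 had -0.80, -0.89 and -0.60 against 0.25, 0.73 and 0.85. In both pairs the native and scrambled values did not overlap. The bone peak chr11:46635536-46635736 had -0.61, 0.54 and -1.28 against 0.33, 1.37 and 0.80, and its difference of -1.27 passed only narrowly (edgeR adjusted p = 0.048) and not in DESeq2 (adjusted p = 0.060) or without replicate 1 (adjusted p = 0.10) or 3 (adjusted p = 0.18). It was lost under 6 of 9 alternatives, with adjusted p-values from 0.025 to 0.18.

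To see where the values differ from those of another chondrocyte line, 7149 elements measured in both lines were compared, each line relative to its own scrambled controls of variant sites. Activity was higher in SW1353 for 876 elements (12.3%) and lower for 1 (0.014%) at an adjusted p under 0.05 by edgeR. The median difference over the 7149 elements was 0.18. Of the 876, 575 were cartilage peaks, 58.0% of that class, whose medians were 1.21 in SW1353 and 0.58 in TC28a2. Reference elements had medians of 0.36 and 0.26, and 76 of 1552 were higher in SW1353. Activities of the lines correlated with r = 0.79 over the shared elements, which are the same sequences.

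These counts came mostly from elements at the limit in either line. Because RNA positions count too, the split also selects against high RNA under that limit. Of the 5214 elements under it in both lines, 71 were among the 876, with 27 of 247 cartilage peaks, and a fit to these 5214 alone called 0 higher and 0 lower by edgeR, with 476 higher and 20 lower at an unadjusted p under 0.05. With the mean count per nonzero position limma also called 0 in each direction, with 273 higher and 725 lower at an unadjusted p under 0.05. The median difference was then -0.086, so that its direction turned with the measure. DESeq2 on all elements called 965 and 2. Without replicate 1 the count of higher elements fell to 521, and with the median of all elements as the reference to 523.

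Under the limit in both lines, the largest called difference was the alternative element with A at position 17806642 of chromosome 12, with 0.91, 2.52 and 0.81 in SW1353 and -0.27, -0.25 and -0.15 in TC28a2. The alternative element with T at position 82188180 of chromosome 11 had 2.27, 1.20 and 1.18 against -0.29, 0.17 and 0.16. The 1 element lower in SW1353 was the alternative with A at position 102979207 of chromosome 10, near LBX1, a transcription factor gene of muscle and spinal cord. It had -1.02, -0.13 and 0.049 in SW1353 and 1.44, 0.79 and 0.39 in TC28a2. The lines did not overlap in any of these 3 elements, which were picked as called differences with 1 sign in all replicates. In SW1353, however, 1 replicate stood apart each time. The chromosome 12 call was lost without replicate 1 or 2, the chromosome 11 call without replicate 1 and the chromosome 10 call without replicate 1 or 2, without the replicate block (adjusted p = 0.099) and without the highest position of each element (adjusted p = 0.19).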

How the data were processed

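DNA and RNA barcodes of SW1353 (3 replicates each) were analysed, with the TC28a2 libraries for the line comparison only; the sample that linked barcodes to elements was not used. The authors deposited raw counts per barcode, element and replicate, as whole numbers without normalization, for the first 500 barcode positions; per the submitters' processing notes the build was hg19. The aligner and counting program are not given in the sources used here, nor whether molecular identifiers were collapsed. Element sequences were not used here, and with no annotation of hg19 at hand no element was assigned to an exon, intron or UTR.

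Counts were summed over positions, each element once, and tested with edgeR 4.0.16 (TMM, quasi-likelihood, two-sided) in R 4.3.3 with the replicate number as a block, since the labels say that DNA and RNA were isolated together. Deviations of same-numbered DNA and RNA libraries correlated with r = 0.023, 0.0011 and -0.0013. Replicate values added 0.5 to each count and use the same zero as the fit; an SE is the fitted log2 value over the root of F. Scripts were tested on simulated data. DESeq2, limma on the mean count per nonzero position, other references and filters were alternatives. Because no library had 500 nonzero positions, the planned 500-position rule was read as position 500 being filled in any replicate; the steps of 100 positions, the split into under and at that limit and the overlap with neighbours were added beside it.

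Elements were named by a rule: per class, the 2 highest and the lowest called with 1 sign in all replicates under the limit, plus the highest of all; the 2 highest of each kind of scrambled control; the 3 largest pair differences each way; the 4 highest positions with every element above and those with every element below; and the 2 largest line differences each way. The alternatives of the named Crohn's disease positions and the neighbours of named positions are given beside them. Agreement between the replicates of a named element, and a lack of overlap in a named pair, follow in part from this rule. The classes, members and rule were chosen with earlier results of these data known.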

Additional observations from a re-analysis of the deposited data

Results flagged for a closer look

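Of the 876 elements called higher in SW1353 than in TC28a2 and the 1 called lower, the 3 named under the limit are given here. The test was that of the difference itself, the interaction of line with RNA against DNA in edgeR. It had n = 3 replicates per line and Benjamini-Hochberg adjustment over 7149 elements. The alternative element with A at position 17806642 of chromosome 12 was higher in SW1353 by 1.65 on the log2 scale (SE 0.43, n = 3, adjusted p = 0.019). That with T at position 82188180 of chromosome 11 was higher by 1.56 (SE 0.35, n = 3, adjusted p = 0.0071). That with A at position 102979207 of chromosome 10 had a difference of -1.21 (SE 0.35, n = 3, adjusted p = 0.035). Over their alternatives the adjusted p ranged from 0.0043 to 0.33, from 0.00070 to 0.27 and from 0.013 to 0.41 in this order. Each difference had the same sign in 3 of 3 replicates, which the rule that named these elements required and which is no further support. None of the 3 passed in the fit to elements under the limit in both lines or with the mean count per nonzero position. The chromosome 10 difference was also lost without the replicate block (-1.19, adjusted p = 0.099) and without the highest position of each element, where it was -0.59 (adjusted p = 0.19), and the chromosome 12 difference with the median of all elements as reference (adjusted p = 0.053). Without replicate 1 all 3 were lost (adjusted p = 0.067, 0.15 and 0.41), and without replicate 2 the first and the last (adjusted p = 0.17 and 0.099).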

How the results depend on the processing

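The count of elements above the scrambled level, 4726, was 2456 without elements at position 500, 1431 by the mean count per nonzero position, 2316 with the median of all elements as reference and 2873 with all scrambled elements as reference. It was 4213 to 4247 without 1 replicate. The count below, 176, was 110, 45, 1055 and 571 under these, 278 without the highest position of each element and 89 to 156 without 1 replicate. Pairs with the native element higher, 139, were 31 without elements at position 500 and 44 by the mean per position, and pairs lower, 42, were 5 and 11; without 1 replicate they were 99 to 120 and 31 to 39. Elements higher in SW1353 than in TC28a2, 876, were 0, 0 and 523 under the first 3 alternatives and 521 to 751 without 1 replicate. Elements lower, 1, were 0 and 0 under the first 2, 4 with the median of all elements as reference, 2 in DESeq2, 2 with no filter, 7 without the highest position and 2 to 4 without 1 replicate. With no replicate block the counts were 4808 and 209 for elements, 154 and 44 for pairs and 918 and 1 for lines; of the named results, 1 element, 1 pair and 1 line difference were then no longer called.

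Class medians, in the order reference, cartilage, bone and muscle, were 0.34, 1.18, 0.70 and 0.66 with a minimum of 50 barcodes, 0.39, 1.29, 0.79 and 0.74 without the highest position, and 0.089, 0.50, 0.25 and 0.24 by the mean per position. With the median of all elements as reference they were -0.098, 0.76, 0.27 and 0.23, and with all scrambled elements 0.053, 0.91, 0.42 and 0.38. Without elements at position 500, relative to the scrambled controls that remain, cartilage, bone and muscle were at 0.70, 0.44 and 0.46. Without 1 replicate the ranges were 0.33 to 0.40, 1.18 to 1.24, 0.72 to 0.76 and 0.64 to 0.73. The cartilage excess over bone was 0.26 without elements at position 500, 0.50 without the highest position, 0.25 by the mean per position and 0.47 to 0.49 without 1 replicate. Bone minus muscle was -0.018 without elements at position 500, 0.012 by the mean per position and 0.030 to 0.081 without 1 replicate.

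No named element, pair or line difference turned its sign under the alternatives run. The choice largely set this in advance, since most were named for a call with 1 sign in all replicates. Of 26 named elements 5 lost their call under at least 1 alternative, of 6 pairs 2 and of 3 line differences 3. All scrambled elements as reference could not be run for the line comparison, since scrambled peaks have no values in TC28a2. Depth limited the calls: with the fewest DNA counts the median SE was 0.24.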
